A study of Homo sapiens with 6 samples.

Results

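Polycomb repressive complexes 1 and 2 (PRC1 and PRC2) were followed through 9 of their core genes: EZH2, EZH1, EED, SUZ12 and JARID2 of PRC2, and RNF2, RING1, BMI1 and CBX2 of PRC1. They were taken by symbol from the 36601 genes of the deposited matrices, and all 9 were found. Their levels were read in 17589 neuroblastoma cells of 6 libraries.

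PRC2 places methyl groups on histone H3 (the H3K27 mark) through its catalytic subunit, EZH2 or the related EZH1, and needs EED and SUZ12 for that activity. PRC1 binds this mark through a CBX protein. It attaches ubiquitin to histone H2A (the H2AK119 mark) through the RING-type ligases RNF2 (also RING1B) and RING1 (RING1A), each paired with a PCGF protein such as BMI1. The complexes keep developmental genes silent, and in neuroblastoma, a tumour of the sympathetic lineage, EZH2 is known for the silencing of differentiation genes.

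SK-N-BE(2)-C cells, a long-established neuroblastoma line of human origin, received 1 of 3 treatments, with 2 libraries each. These were the solvent DMSO as control, TSA (commonly short for trichostatin A, which blocks the catalytic site of histone deacetylases, HDACs) and the compound E6R. By its title the series concerns inhibition of the HDAC complex by a non-enzymatic route. Neither doses, nor times, nor the chemical identity of E6R are stated in the labels, so it is not known whether TSA and E6R were matched. All libraries were made with Seq-Well S3, in which each well of an array holds a cell and a barcoded bead, and which counts transcripts by unique molecular identifiers (UMIs). The labels do not say that replicates were separate cultures, so p-values measure the spread between these libraries, which may be technical. In sums over cells, fewer cells that express a gene and less RNA per cell cannot be told apart.

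Cells were barcodes with at least 500 genes and at most 20% mitochondrial UMIs, 1861 to 3946 per library. The DMSO libraries were the shallowest, with 4206366 and 4793493 UMIs in cells, against 13318200 to 26180262 in the others. Median UMIs per cell were 1053.5 to 1880, and each pair of libraries shared 11 to 58 barcodes, where 0.27 to 0.77 would be shared if the 12 bases of each were random. Of the 17589 cells 299 carried a shared barcode, and leaving them out ended 1 call among the 9 genes, that of EZH1 given with its values. Mitochondrial UMIs were 5.83% and 6.20% in DMSO, 6.08% and 9.71% in TSA, and 1.55% and 1.51% in E6R. All 10 adrenergic neuroblastoma markers were detected in every library, with a summed level of 1399 to 3386 CPM (counts scaled to a common library size). Of 7 markers of immune, epithelial, fibroblast and endothelial cells, 3 were detected in every library. CD3E was at 0 in all libraries but DMSO replicate 2, and PTPRC, LYZ and CDH1 were at 0 in some. The summed level of these 7 genes was 47.6 and 8.61 CPM in DMSO, 47.2 and 41.2 in TSA, and 69.9 and 6.96 in E6R. Its largest parts were COL1A1, a fibroblast collagen, and PECAM1, an endothelial gene. PECAM1 was at 21.7 and 27.7 CPM in replicate 1 of DMSO and E6R but at 1.15 and 0.376 in replicate 2. The replicates of DMSO and of E6R therefore differed in more than depth.

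The promoters of 2 paralog pairs, EZH1 with EZH2 and RNF2 with RING1, are printed here because the only members to pass a test, EZH1 and RNF2, each have a paralog that did not. They come from RefSeq (build GRCh38.p14), which matched 8 of the 9 genes, all but CBX2. Of the 250 bases before the RefSeq start (the more upstream of its starts for EZH2), only those before the GENCODE 29 gene are printed, 5′ to 3′ on the gene's strand. The EZH1 stretch was chr17:42745050-42745290 (minus strand), EZH2 chr7:148884322-148884541 (minus strand), RNF2 chr1:185045308-185045363 (plus strand) and RING1 chr6:33208250-33208494 (plus strand). Capitals mark matches on either strand to the letters of the GC box, GGGCGG, and to those of the other promoter element searched here by its name, the CCAAT box.
EZH1: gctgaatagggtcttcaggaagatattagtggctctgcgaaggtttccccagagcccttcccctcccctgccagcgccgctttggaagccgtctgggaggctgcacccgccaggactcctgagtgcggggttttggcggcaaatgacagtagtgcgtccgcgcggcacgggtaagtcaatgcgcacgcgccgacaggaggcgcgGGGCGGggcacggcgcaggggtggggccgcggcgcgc
EZH2: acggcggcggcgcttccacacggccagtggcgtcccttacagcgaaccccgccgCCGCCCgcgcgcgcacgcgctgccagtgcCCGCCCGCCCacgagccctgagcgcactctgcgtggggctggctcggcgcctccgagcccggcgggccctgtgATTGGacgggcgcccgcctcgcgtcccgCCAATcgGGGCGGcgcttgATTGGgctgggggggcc
RNF2: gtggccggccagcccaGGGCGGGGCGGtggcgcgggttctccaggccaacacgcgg
RING1: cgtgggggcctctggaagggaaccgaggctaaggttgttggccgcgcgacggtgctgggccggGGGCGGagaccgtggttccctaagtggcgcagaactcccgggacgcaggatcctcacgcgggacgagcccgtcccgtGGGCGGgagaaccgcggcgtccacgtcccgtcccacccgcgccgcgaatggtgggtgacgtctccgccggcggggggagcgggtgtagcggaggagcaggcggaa
The EZH2 stretch held 3 CCAAT and 4 GC boxes, and no CCAAT box was in the EZH1, RNF2 or RING1 stretch. Over the whole window of 250 bases, GC boxes were in 7 of the 8 genes and in 42.6% of 35116 RefSeq promoters, and CCAAT in 4 of 8 genes and in 32% of promoters. EZH2, JARID2 and BMI1 had a further window at another start. A gene was counted if any of its windows matched, while the shares are of single promoters, so the 2 are not like for like. E2F-type letters (TTTGGCGC, TTTCCCGC, TTTCGCGC, TTTGCGCC, TTCCCGCC or TTGGCGCC, either strand) were in the windows of RNF2 and SUZ12 and in 5.4% of promoters. In RNF2 this match shares bases with a GC box and lies 104 to 111 bases before the RefSeq start, inside the GENCODE gene. NRF1-type letters (GCGCATGC, either strand) were in the window of EZH1, 6 to 13 bases before the RefSeq start, and in 2.63% of promoters. CRE letters (TGACGTCA) were in the more downstream window of JARID2 only, and in 1.65% of promoters. E-box letters (CACGTG) were in the more upstream window of BMI1 only, and in 6.34%. ETS letters (CCGGAAG) were in 0 of 8 genes and in 8.52% of promoters. These matches describe letters and do not show binding.

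Few of the 9 genes passed the test in any comparison. Whether their share differed from that of all genes was not tested. With TSA against DMSO, 1 of 9 passed the test (RNF2, lower), where 29.7% of the 16763 tested genes did. With E6R against DMSO, 0 of 9 passed, where 0.0% of all genes did. At an unadjusted p under 0.05 in edgeR, 0 of 9 passed in that comparison against 17.4% of all genes, and DESeq2 also called 0 of 9, against 2.14% of the 15788 genes to which it gave an adjusted p. With E6R against TSA, 2 of 9 passed (RNF2 higher, EZH1 lower), against 38.2% of all genes. UMI sums per library were tested by quasi-likelihood in edgeR, and a gene passed with a Benjamini-Hochberg adjusted p under 0.05 over all tested genes. All 9 genes passed the filter on low counts. The comparisons share libraries and are not independent of one another.

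The median log2 fold change of the 9 genes was 0.22 for TSA against DMSO, 0.11 for E6R against DMSO and -0.05 for E6R against TSA. Over all tested genes it was -0.01, 0.03 and -0.09 in that order. With plain UMI totals in place of the TMM scaling, the medians over all genes became -0.32, -0.10 and 0.08, so fitted values near 0 can change sign with the scaling.

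**Figure D1:**
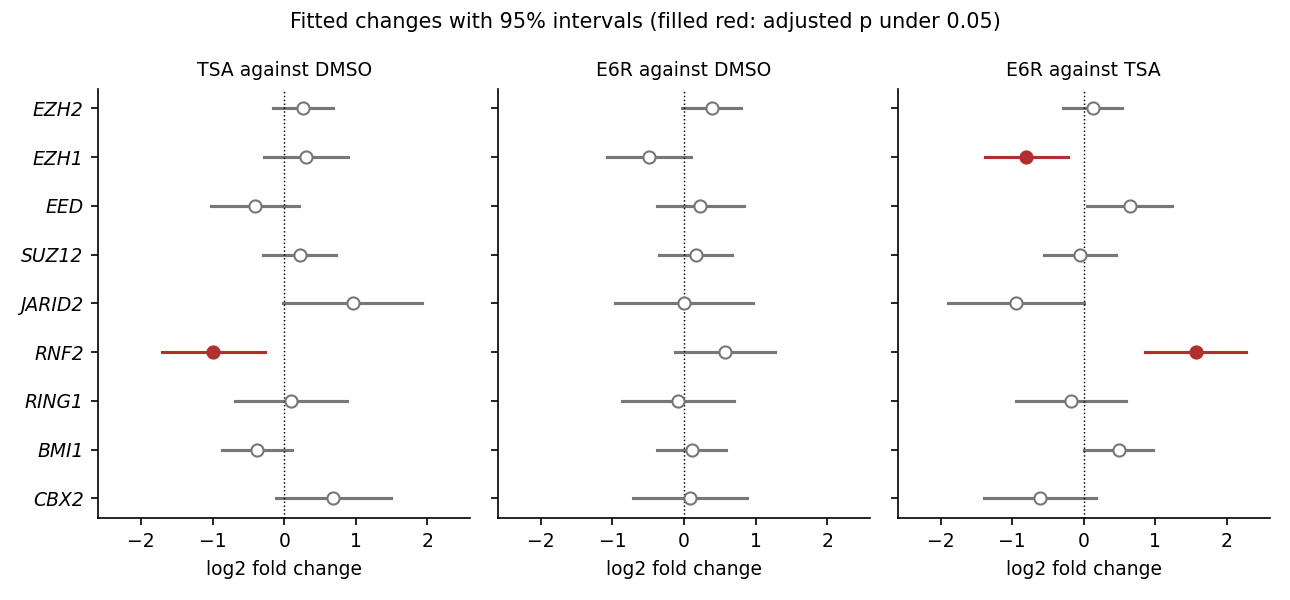
Fitted log2 fold changes (horizontal axis) of the 9 genes (vertical axis) with 95% intervals in the 3 comparisons, filled red where the edgeR adjusted p was under 0.05. RNF2 stands left of 0 for TSA against DMSO and right of 0 for E6R against TSA, and EZH1 stands left of 0 for E6R against TSA.

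EZH2 (chr7:148807383-148884321, minus strand), the main H3K27 methyltransferase of dividing cells, was at 89.4 and 87.2 CPM in DMSO, 107.6 and 104 CPM in TSA, and 108.1 and 123 CPM in E6R. Both treated groups lay above DMSO, and the lower E6R library was level with the higher TSA library. The difference did not pass the test for TSA (log2 fold change 0.26, 95% interval -0.15 to 0.67, edgeR adjusted p = 0.30), and its sign turned with plain totals (-0.05). For E6R it was 0.39 (interval -0.03 to 0.80, edgeR adjusted p = 0.313).

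EZH1 (chr17:42700275-42745049, minus strand), the paralog that is more typical of non-dividing cells, was at 17.0 and 19.7 CPM in DMSO, 20.3 and 25.2 CPM in TSA, and 12.9 and 13.2 CPM in E6R. Both E6R libraries were below all others, and both TSA libraries were above DMSO. E6R was lower than TSA by the test (log2 fold change -0.80, SE 0.25, edgeR adjusted p = 0.0367). That call was lost when any 1 of the 6 libraries was left out, with log2 fold changes of -0.94 to -0.64 and adjusted p-values of 0.0739 to 0.256. It was kept in 6 of 21 alternative settings, all with the same sign, and was lost without the shared barcodes (-0.73, adjusted p = 0.0536). Against DMSO, EZH1 was fitted at -0.49 for E6R (adjusted p = 0.356) and 0.31 for TSA (adjusted p = 0.386, with -0.01 on plain totals).

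The mitochondrial share, given above for each library, had the order of EZH1 by group. The genes whose log2 CPM was most like that of EZH1 over the 6 libraries were MT-CO1 (Pearson r = 0.997), MT-CO3 (0.993) and MT-CO2 (0.991), of 7515 genes compared. These 6 points fall into 3 groups and share their libraries' depth, so the r is a description. MT-CO1 was at 4741 and 7892 CPM in DMSO, 8659 and 15870 CPM in TSA, and 1566 and 1774 CPM in E6R. When mitochondrial and ribosomal protein genes were left out of the sums, the EZH1 difference between E6R and TSA was -0.70 with an edgeR adjusted p of 0.0559. In cells with at most 10% mitochondrial UMIs it was -0.73 with an edgeR adjusted p of 0.0600. The call was thus lost in both settings while the fitted difference differed from -0.80 by less than its standard error.

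EED (chr11:86244544-86278813, plus strand), the subunit that binds methylated H3K27 and stimulates the enzyme, was at 20.8 and 17.0 CPM in DMSO, 16.1 and 12.3 CPM in TSA, and 21.9 and 22.5 CPM in E6R. TSA lay lowest and E6R highest, with no overlap. The differences did not pass the test: -0.41 for TSA against DMSO (edgeR adjusted p = 0.269), 0.23 for E6R against DMSO (0.685) and 0.64 for E6R against TSA (0.0842, with 0.81 and 0.0487 on plain totals and 0.89 and 0.0357 without the low-count filter). SUZ12 (chr17:31937018-32001045, plus strand), the scaffold of PRC2, was at 103 and 135 CPM in DMSO, 142 and 136 CPM in TSA, and 116 and 151 CPM in E6R. E6R overlapped both other groups, and the spread within DMSO and within E6R was wider than the distance between group means. The 95% interval of the log2 difference from DMSO was -0.29 to 0.73 for TSA, whose fitted value turned to -0.09 on plain totals, and -0.35 to 0.67 for E6R.

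JARID2 (chr6:15246296-15522040, plus strand), a cofactor that helps PRC2 find its targets, was at 45.9 and 22.8 CPM in DMSO, 66.2 and 66.5 CPM in TSA, and 47.1 and 21.8 CPM in E6R. The TSA libraries lay above the other 4, and replicate 1 was about as far above replicate 2 in DMSO as in E6R. The log2 fold change of TSA against DMSO was 0.95 (SE 0.42, edgeR adjusted p = 0.123) and did not pass. It passed with the replicate number as a block (1.06, adjusted p = 0.0157), without the low-count filter (0.87, 0.0124), and without E6R replicate 1 (0.99, 0.0303) or 2 (0.97, 0.0298), which also enter the estimate of spread. E6R against TSA was -0.95 (edgeR adjusted p = 0.104). It passed with the replicate block (-1.07, 0.0101), without the low-count filter (-0.70, 0.0425), with sums thinned to the smallest (-1.29, 0.0467) and without E6R replicate 1 (-1.53, 0.0128). The antisense gene JARID2-AS1 overlaps JARID2, and no label states whether counting used the strand. Genes on the other strand also overlap RNF2 (FTH1P25), EZH1 (AC100793.1), EZH2 (RF00017 and RNU7-20P) and SUZ12 (RNA5SP437).

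**Figure D2:**
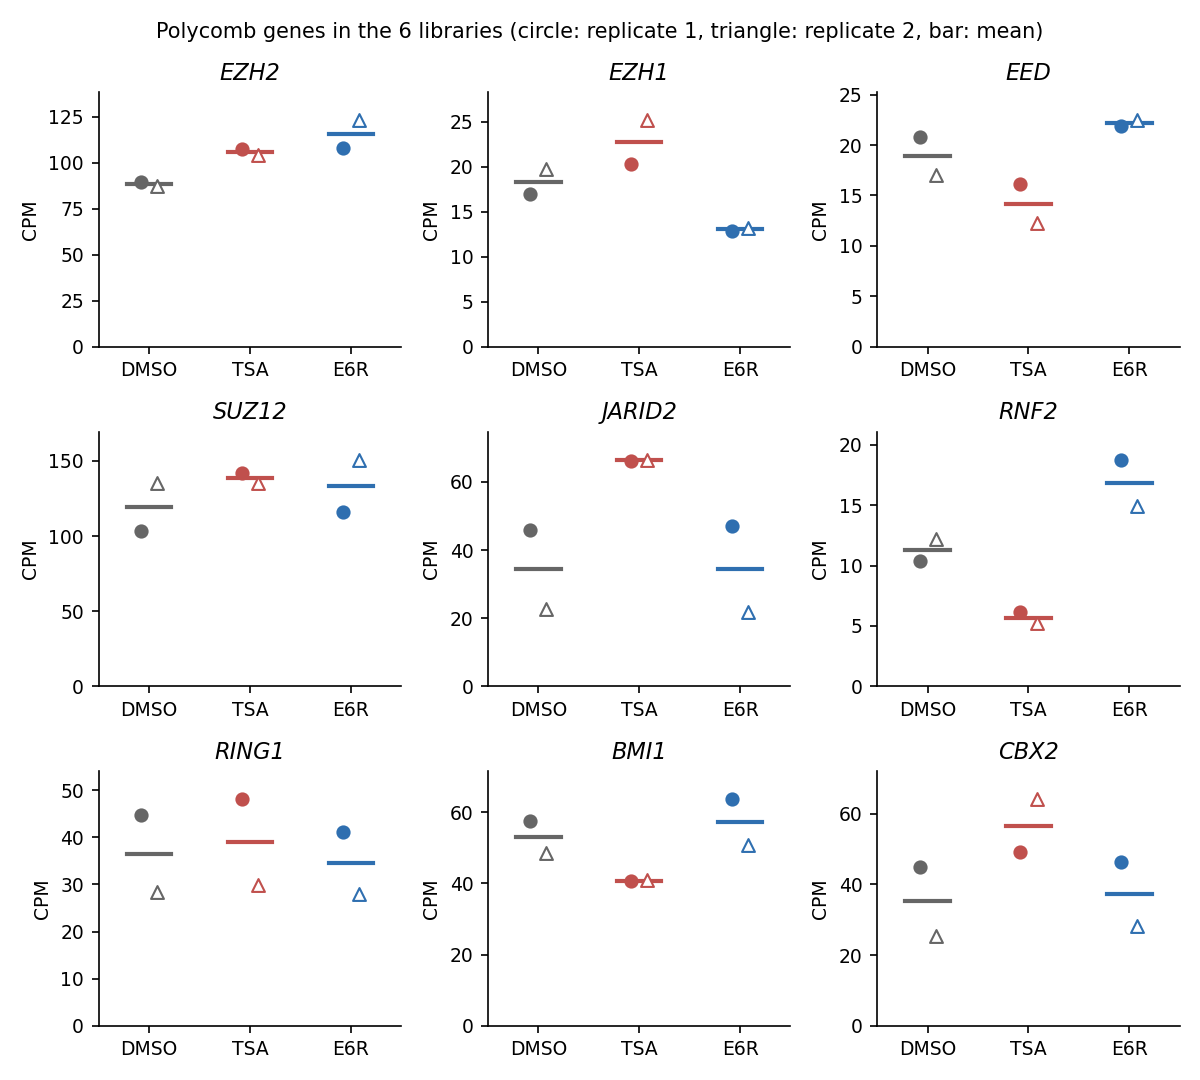
Level in CPM (vertical axis, TMM scaled, from 0) of each of the 9 genes in the 2 libraries of DMSO, TSA and E6R (horizontal axis), with circles for replicate 1, triangles for replicate 2 and a bar at the mean. RNF2 shows 3 separate groups with TSA lowest at 6.15 and 5.22 CPM, while RING1, JARID2 and CBX2 show replicate 1 well above replicate 2 in DMSO and in E6R.

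RNF2 (chr1:185045364-185102608, plus strand), the main H2AK119 ubiquitin ligase of PRC1, was at 10.4 and 12.2 CPM in DMSO, 6.15 and 5.22 CPM in TSA, and 18.8 and 14.9 CPM in E6R. These values rest on 49 and 64 UMIs in DMSO, 81 and 60 in TSA, and 297 and 397 in E6R. The 3 groups did not overlap, with TSA lowest and E6R highest. RNF2 fell under TSA against DMSO (log2 fold change -0.99, SE 0.31, edgeR adjusted p = 0.0450) and was higher in E6R than in TSA (1.56, SE 0.30, edgeR adjusted p = 0.00582). E6R against DMSO was 0.57 (interval -0.13 to 1.27, edgeR adjusted p = 0.365) and did not pass.

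The fall under TSA was at the edge of the threshold. It was lost without any 1 of the DMSO or TSA libraries, where the log2 fold change was -1.09 to -0.84 and the edgeR adjusted p 0.107 to 0.254. Of 21 alternative settings 10 kept this call, and none turned its sign. The difference between E6R and TSA was kept in 18 of 21 settings. It was lost without TSA replicate 2 (1.45, edgeR adjusted p = 0.0697), with every cell thinned to 1000 UMIs (1.13, 0.0984) and in the tercile of cells with the fewest cell-cycle UMIs (1.11, 0.0510).

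RING1 (chr6:33208495-33212722, plus strand), the paralog of RNF2, was at 44.8 and 28.3 CPM in DMSO, 48.1 and 29.95 CPM in TSA, and 41.1 and 27.9 CPM in E6R. Replicate 1 was above replicate 2 under each treatment, and all 3 groups overlapped. The 95% interval of its log2 difference from DMSO was -0.69 to 0.88 for TSA, fitted at -0.21 on plain totals, and -0.87 to 0.70 for E6R. Whether RNF2 and RING1 changed differently was not tested in the fit.

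BMI1 (chr10:22321211-22331484, plus strand), the PCGF subunit that pairs with the ligase, was at 57.6 and 48.6 CPM in DMSO, 40.6 and 40.8 CPM in TSA, and 63.6 and 50.8 CPM in E6R. TSA was lowest without overlap, at a log2 fold change of -0.38 against DMSO (edgeR adjusted p = 0.204), and E6R overlapped DMSO. On plain totals this difference was -0.70 and passed (adjusted p = 0.0461). E6R against TSA was 0.49 (edgeR adjusted p = 0.0984) and passed on plain totals (0.67, 0.0428) and without the low-count filter (0.74, 0.0245). BMI1 shares its locus and strand with the readthrough gene COMMD3-BMI1, so reads could be divided between them. CBX2 (chr17:79778132-79787983, plus strand), a chromodomain protein that reads methylated H3K27, was at 45.0 and 25.4 CPM in DMSO, 49.1 and 64.1 CPM in TSA, and 46.3 and 28.2 CPM in E6R. TSA lay above DMSO and E6R, at 0.68 against DMSO (edgeR adjusted p = 0.170) and with E6R against TSA at -0.61 (0.193).

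Members whose groups did not overlap numbered 8 of 9 for TSA against DMSO (71.3% of all genes), with 5 above and 3 below (36.7% and 34.6% of all genes). For E6R against DMSO they numbered 4 of 9 (47.3%), with 3 above and 1 below (24.6% and 22.7%), and for E6R against TSA 7 of 9 (72.6%), with 4 above and 3 below (33.7% and 38.9%). The 4 for E6R against DMSO were EZH2, EED and RNF2 above and EZH1 below.

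JARID2, RING1 and CBX2 split by replicate in DMSO and E6R. The summed level of the 7 markers of other cell types, given above, split the same libraries in that direction, and so did PECAM1. In TSA that sum was 47.2 and 41.2 CPM, while RING1 split there too (48.1 and 29.95 CPM). CBX2 was at 49.1 and 64.1 CPM in TSA, the other way round. The part of the marker split in the levels of the 3 genes was not tested. The genes most like CBX2 over the 6 libraries were RIMS3 (Pearson r = 0.989), ARID3A (0.985) and DLC1 (0.985), and those most like EZH2 were AIMP2 (0.994), TAF5 (0.993) and TRMT10C (0.983), as descriptions over 6 libraries in 3 groups. For example, DLC1 was at 24.0 and 12.4 CPM in DMSO, 30.9 and 40.8 CPM in TSA, and 28.4 and 11.5 CPM in E6R.

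Shares within a paralog pair do not depend on the scaling between libraries. Of the UMIs of EZH1 plus EZH2, EZH1 held 15.97% (95% Clopper-Pearson interval 12.9 to 19.5) and 18.4% (15.3 to 21.9) in DMSO. It held 15.9% (14.2 to 17.7) and 19.5% (17.5 to 21.6) in TSA, and 10.7% (9.31 to 12.1) and 9.70% (8.75 to 10.7) in E6R. TSA and DMSO overlapped, and E6R was below both (E6R minus DMSO -7.02 and E6R minus TSA -7.49 percentage points). Intervals here cover counting error only. In an exact two-sided permutation test over libraries each of the last differences had p = 0.333, the smallest that 2 libraries against 2 can give. In the tercile of cells with the fewest cell-cycle UMIs the share was 29.7% ± 11.5 (SD, n = 2) in DMSO, 21.7% ± 2.81 in TSA and 15.98% ± 2.17 in E6R. TSA and DMSO overlapped there and E6R was below both, with E6R minus DMSO at -13.7 and E6R minus TSA at -5.73 percentage points.

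Of the UMIs of RNF2 plus RING1, RNF2 held 18.8% (14.3 to 24.1) and 30.2% (24.1 to 36.9) in DMSO, 11.3% (9.11 to 13.9) and 14.9% (11.5 to 18.7) in TSA, and 31.4% (28.4 to 34.4) and 34.9% (32.1 to 37.7) in E6R. TSA was below DMSO (TSA minus DMSO -11.4 percentage points) and below E6R (E6R minus TSA 20.01), without overlap (exact permutation p = 0.333 for each, again the smallest possible). E6R replicate 1 was only just above DMSO replicate 2, and these groups overlapped with cells thinned to 1000 UMIs. E6R minus DMSO was 8.59 percentage points, and 3.54 in the tercile with the fewest cell-cycle UMIs. These shares were set up after the levels had been seen. UMIs are counted at transcript ends and captured unequally between genes, so only the change of a share between libraries is read here.

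**Figure D3:**
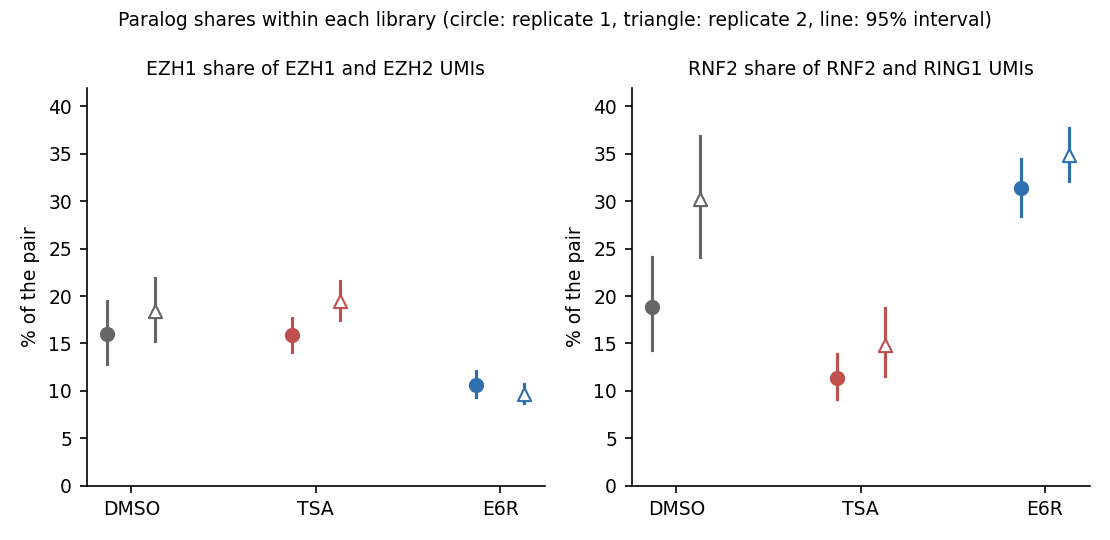
Share (vertical axis, % of the pair's UMIs, from 0) of EZH1 within EZH1 plus EZH2 (left) and of RNF2 within RNF2 plus RING1 (right) in each library by treatment (horizontal axis), with exact 95% counting intervals as lines. The E6R libraries lie lowest on the left at 10.7% and 9.70%, and the TSA libraries lie lowest on the right at 11.3% and 14.9%.

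The share of cells with a UMI of a member differed between groups along with depth. EZH2 was seen in 13.9% ± 2.36 (SD, n = 2) of DMSO cells, 24.5% ± 5.01 of TSA cells and 27.7% ± 3.13 of E6R cells. With each cell thinned to 1000 UMIs, which left out 5652 of 17589 cells (674 and 1450 in DMSO, 615 and 503 in TSA, 692 and 1718 in E6R), the shares were 9.92% ± 0.685, 7.82% ± 0.143 and 11.3% ± 1.4. The thinned share of TSA went against its CPM, so no order is read from either. For TSA against DMSO, 1 member had a higher thinned share in both TSA libraries (JARID2). There were 4 with a lower one (EZH2, EED, RNF2 and BMI1), and 4 overlapped. The matching share of all genes was not computed for TSA. RNF2 was seen in 2.02% ± 0.188, 2.28% ± 0.904 and 7.63% ± 1.19 of cells before thinning and in 1.27% ± 0.133, 0.566% ± 0.345 and 1.47% ± 0.301 after it. For E6R against DMSO, 8 of 9 members had a higher share in both E6R libraries before thinning, as did 73.3% of all tested genes. After thinning 1 did (BMI1, 4.82% ± 0.0919 in DMSO against 5.74% ± 0.500 in E6R), against 15.9% of all genes, 1 was lower in both (EZH1), against 20% of all genes, and 7 overlapped.

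Barcodes under 500 genes, which hold free RNA and broken cells, gave the background of these shares. A UMI of a member was seen in 0.0696% to 4.28% of them, at median depths of 121 to 298 UMIs. The member's CPM in cells was 0.603 to 2.02 times its CPM in these small barcodes (median 1.15), and was higher in cells in 44 of 54 pairs of gene and library. By gene, the mean ratio of the 2 libraries was lowest for EZH1, at 0.828 in DMSO, 0.895 in TSA and 0.751 in E6R. It was highest for RNF2, at 1.70, 1.48 and 1.29 in that order. At the median, a member's share of the RNA in small barcodes was thus not far from its share in cells. For RNF2 the ratios rest on few UMIs in small barcodes, 19 and 23 in DMSO and 14 and 8 in TSA. EZH1 in DMSO replicate 2 was at 21.5 CPM in cells and 20.4 in small barcodes, against the direction of its mean. No departure of EZH1 or RNF2 from the other members is therefore read.

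Cells were also ordered within each library by their UMIs of 26 mitosis genes or of 21 replication genes after thinning, and the upper and lower terciles were compared. A tercile is a range of a score and not a cell type, since 124 to 406 cells of a library sat on the lower mitosis cut. EZH2 was at 147, 143, 104, 95.8, 127 and 158 CPM in the mitosis-high cells of DMSO, TSA and E6R (replicates 1 and 2 of each in turn). In the mitosis-low cells it was at 45.6, 89.3, 61.6, 75.4, 94.1 and 124 CPM. It was higher in the mitosis-high cells in 6 of 6 libraries, with ratios of 1.27 to 3.22 (median 1.47). SUZ12 was also higher in 6 of 6, with ratios of 1.04 to 1.60 (median 1.38). CBX2 was higher in 5 of 6 (median 1.25) and JARID2 in 3 of 6 (median 0.93). Of 5897 genes with at least 20 UMIs in both terciles added together, in every library, 6.41% were higher in 6 of 6. By that rule 6 of the 9 members were deep enough, but in single terciles they had as few as 10 UMIs.

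By replication genes, CBX2 was higher in the upper tercile in 6 of 6 libraries (ratios 1.08 to 1.60), against 5.74% of 5911 genes. EZH2 was higher in 5 of 6, all but DMSO replicate 2, with a median ratio of 1.38. SUZ12 was higher in 4 of 6 (median 1.15) and JARID2 in 2 of 6 (median 0.81). BMI1 was higher in 5 of 6 by either list, with median ratios of 1.38 by mitosis and 1.34 by replication. RING1 was higher in 1 of 6 by mitosis and 3 of 6 by replication. RNF2, EED and EZH1 had as few as 2, 5 and 7 UMIs in a tercile, and their ratios are not read. Over libraries, summed mitosis UMIs were 0.607% and 0.647% in DMSO, 0.507% and 0.504% in TSA, and 0.555% and 0.622% in E6R, and replication UMIs 0.303% and 0.239%, 0.247% and 0.264%, and 0.332% and 0.399%. In the tercile of cells with the fewest UMIs of both lists, 0 of 9 members passed in any comparison, where 19.2% of 13342 tested genes passed for TSA against DMSO, 0% for E6R against DMSO and 29.7% for E6R against TSA. These sums hold fewer cells. RNF2 was fitted there at -0.99 for TSA against DMSO and EZH1 at -0.45 for E6R against TSA.

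**Figure D4:**
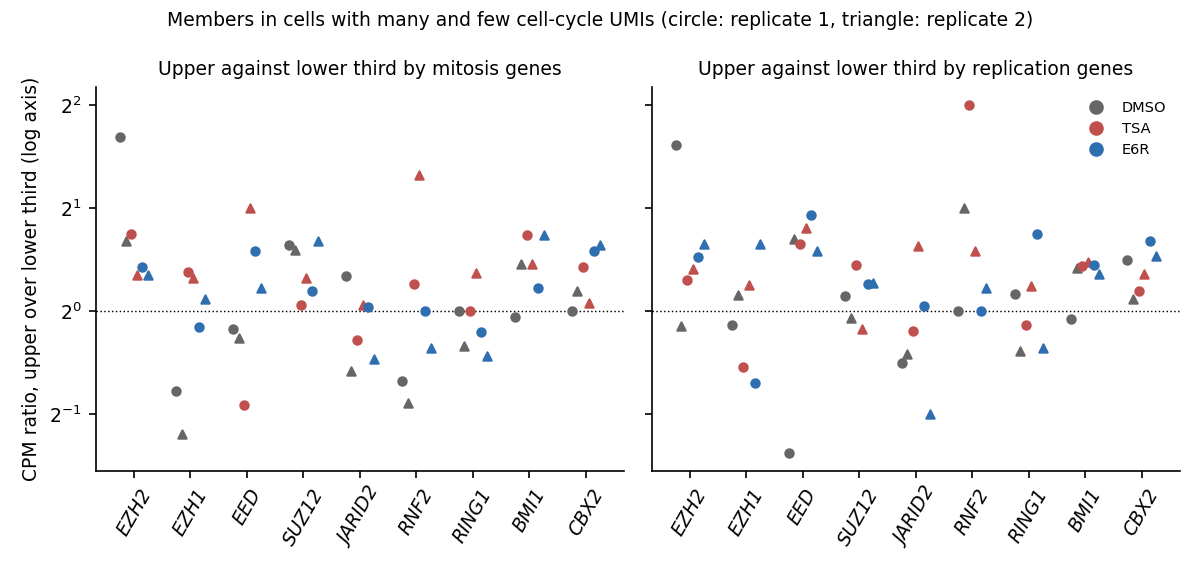
Ratio of CPM in the upper to the lower tercile of cells (vertical log axis) for each of the 9 genes (horizontal axis), by mitosis genes (left) and replication genes (right), with circles for replicate 1 and triangles for replicate 2. All 6 points of EZH2 and SUZ12 on the left, and of CBX2 on the right, stand above 1.

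The wider Polycomb system was read from a list of 57 further subunits and opposing enzymes, of which 55 passed the filter on low counts (EZHIP had no UMI and ASXL3 too few). Changes under TSA went both ways. With TSA against DMSO 22 of 55 (40%) passed the test, 11 higher and 11 lower, against 16.2% of all genes higher and 13.5% lower. On plain totals the split was 4 higher and 17 lower, where 30.3% of all genes passed in either direction. Fewer of the 55 passed when 1 DMSO or TSA library was dropped, and so did fewer of all genes. With E6R against DMSO 0 of 55 passed in edgeR. At an unadjusted p under 0.05 there were 8 of 55 (17.4% of all genes), and by DESeq2 1 of 55 (2.14% of all genes). With E6R against TSA 24 of 55 (43.6%) passed, 15 higher and 9 lower, against 18.7% and 19.5% of all genes. On plain totals the split was 20 and 5, where 38.1% of all genes passed in either direction. Fewer of the 55 and fewer of all genes passed when 1 TSA library was dropped.

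Among the partners of PRC2, 3 of 9 tested (33.3%) passed with TSA against DMSO, near the 29.7% of all genes. PHF19, a Polycomb-like protein that recruits PRC2, was at 71.4 and 90.5 CPM in DMSO, 12.8 and 9.66 CPM in TSA, and 99.2 and 144 CPM in E6R. It fell under TSA (log2 fold change -2.85, SE 0.28, edgeR adjusted p = 0.000979) and was higher in E6R than in TSA (3.44, SE 0.28, edgeR adjusted p = 0.000359), and both calls held in all 21 alternative settings. Its relative PHF1 rose, from 27.6 and 27.2 CPM in DMSO to 46.6 and 48.8 CPM in TSA (0.80), and was at 16.4 and 18.4 CPM in E6R. EPOP, a PRC2 partner, also rose (0.95), close to the threshold (edgeR adjusted p = 0.0439). EPOP, and PHF1 in this comparison, were named after their values were seen. RBBP4, a histone-binding subunit of PRC2 that HDAC complexes also hold, was at 47.0 and 41.1 CPM in DMSO, 46.8 and 51.5 CPM in TSA, and 105 and 86.9 CPM in E6R. Both E6R libraries were above the other 4, but E6R against DMSO did not pass in edgeR (1.12, SE 0.20, adjusted p = 0.205), as no gene did there, and passed with DESeq2 (adjusted p = 0.00173). Its paralog RBBP7 was at 125 ± 1.39 CPM in DMSO and 191 ± 11.6 in E6R (SD, n = 2; edgeR adjusted p = 0.215).

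Of 11 further canonical PRC1 genes, 2 rose and 3 fell under TSA (45.5% passed, against 29.7% of all genes). The rises included the chromodomain gene CBX8 (log2 fold change 1.05). The falls were in PCGF2, the close paralog of BMI1 (47.4 and 45.9 CPM in DMSO, 20.2 and 22.8 CPM in TSA, -1.12), in PHC2, a Polyhomeotic subunit (-1.05), and in CBX6 (-0.82, named after its values were seen). PCGF2 was lost without TSA replicate 1 or 2 (edgeR adjusted p 0.0713 and 0.0566). CBX8 and PHC2 were lost without any 1 of the DMSO or TSA libraries (0.0587 to 0.199 and 0.109 to 0.191). In E6R, PCGF2 was at 50.2 and 57.5 CPM, above TSA (1.32, edgeR adjusted p = 0.00234).

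Of 23 variant PRC1 genes, 5 rose and 5 fell under TSA (43.5% passed, against 29.7% of all genes). BCORL1, a corepressor of the complex, was at 5.52 and 11.9 CPM in DMSO, 35.5 and 41.7 CPM in TSA, and 6.07 and 6.06 CPM in E6R, a rise under TSA of 2.14 (SE 0.37, edgeR adjusted p = 0.00524) that was lost without TSA replicate 2 (adjusted p = 0.0517). SKP1, a subunit shared with other ubiquitin ligases, rose by 1.06 and was lost without DMSO replicate 2 (adjusted p = 0.0554) or TSA replicate 1 (0.0516). USP7, a deubiquitinase that stabilises PRC1, fell from 161 and 177 CPM to 53.9 and 51.7 CPM (-1.68, SE 0.21, edgeR adjusted p = 0.00189) and was at 218 and 163 CPM in E6R. YAF2, a RYBP-like subunit, fell by 1.07 on the log2 scale and was lost without any 1 of the DMSO or TSA libraries (adjusted p 0.0541 to 0.121). The other rises were in FBRSL1 (1.03), RYBP (0.90) and MGA (0.72), and the other falls in BCOR (-0.99), CBX3 (-0.90) and L3MBTL2 (-0.65). All of these were named after their values were seen, and L3MBTL2 was close to the threshold (edgeR adjusted p = 0.0494). Of the 4 PCGF subunits of variant complexes, PCGF6 (1.61, edgeR adjusted p = 0.00510) and PCGF1 (1.41, 0.0176) were higher in E6R than in TSA, while PCGF3 (0.29, 0.344) and PCGF5 (-0.48, 0.220) did not pass. PCGF1 was at 3.19 and 4.61 CPM in TSA and 9.04 and 11.7 CPM in E6R. PCGF6 was lost without TSA replicate 2 (adjusted p = 0.0644), and PCGF1 without TSA replicate 1 (0.142) or 2 (0.0709).

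Of 10 tested genes of the H2AK119 deubiquitinase machinery, 2 rose and 2 fell under TSA (40% passed, against 29.7% of all genes). KDM1B, listed here as a partner of that machinery and known as a histone H3 demethylase, rose from 15.1 and 21.6 CPM to 56.4 and 54.4 CPM (1.59, SE 0.25, edgeR adjusted p = 0.00380) and was at 14.1 and 13.4 CPM in E6R. The forkhead partner FOXK2 rose too (0.78), and HCFC1 (-0.98) and USP16 (-0.65) fell, all but KDM1B named here after their values were seen. BAP1, the catalytic subunit, was at 71.8 and 90.1 CPM in DMSO and 56.0 and 48.0 CPM in E6R (-0.64, edgeR adjusted p = 0.218), a difference that did not pass. The H3K27 demethylases KDM6A and KDM6B passed in 0 of 3 comparisons.

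**Figure D5:**
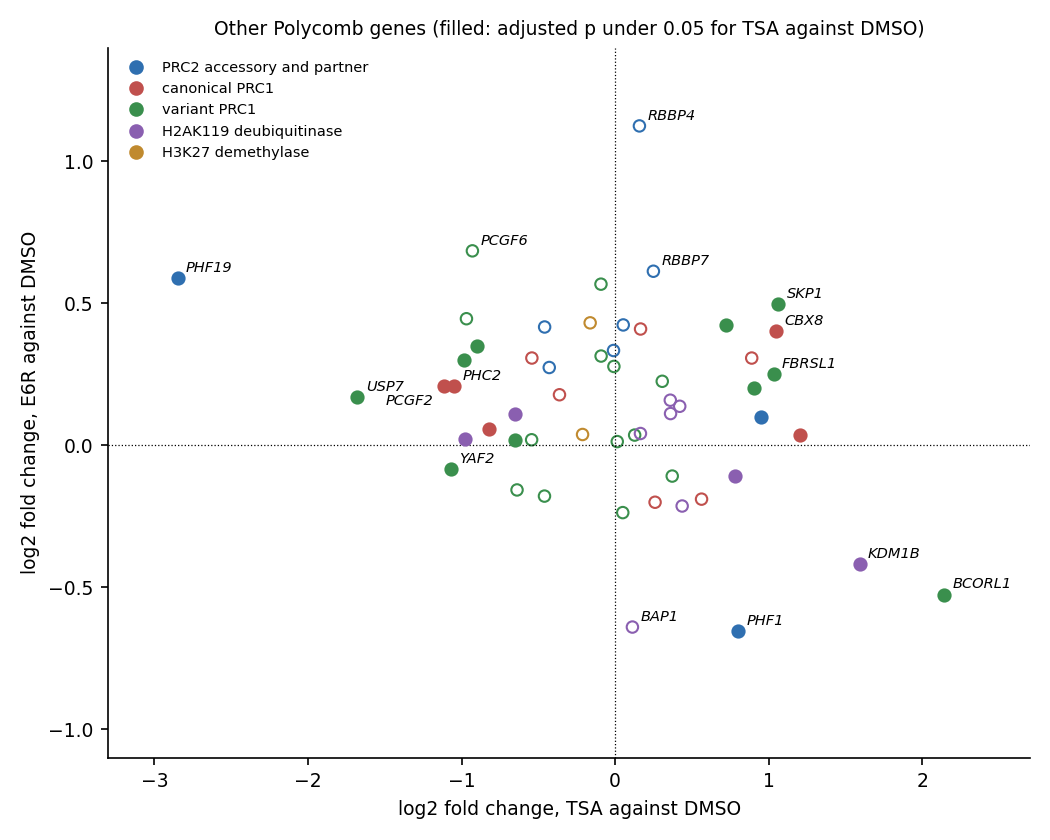
Fitted log2 fold change of 55 further Polycomb genes with TSA against DMSO (horizontal axis) and with E6R against DMSO (vertical axis), coloured by complex and filled where TSA passed the edgeR test. The axes share the DMSO libraries, so a slope across points is not read. PHF19 stands farthest left at -2.85, BCORL1 farthest right at 2.14 and RBBP4 highest at 1.12.

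Genes known to be silenced by EZH2 in neuroblastoma, CASZ1, CLU, RUNX3 and NGFR, were read in the same fit. They were listed with earlier results of these data known, so the shares of all genes beside them are not a test. The comparisons of TSA with DMSO and with E6R share the TSA libraries and are not separate observations. With TSA against DMSO 2 of 4 rose, where 16.2% of all genes did. NGFR, a neurotrophin receptor, was at 9.14 and 11.3 CPM in DMSO, 63.5 and 55.7 CPM in TSA, and 11.4 and 11.02 CPM in E6R (2.54 for TSA against DMSO, SE 0.24, edgeR adjusted p = 0.000922). CLU, the chaperone clusterin, was at 253 and 150 CPM in DMSO, 608 and 573 CPM in TSA, and 337 and 129 CPM in E6R (1.55, SE 0.44, edgeR adjusted p = 0.0326), a call lost without any 1 of the DMSO or TSA libraries (adjusted p 0.0565 to 0.183). CASZ1, a zinc finger factor, was at 9.56 and 8.61 CPM in DMSO, 14.1 and 20.6 CPM in TSA, and 9.79 and 6.06 CPM in E6R, and did not pass for TSA against DMSO (0.94, edgeR adjusted p = 0.0887). RUNX3 had 3 and 3 UMIs in DMSO, 21 and 20 in TSA, and 6 and 5 in E6R.

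With E6R against DMSO 0 of the 4 passed (edgeR adjusted p 0.485 to 0.831). With E6R against TSA 4 of 4 were lower, from -2.57 for RUNX3 to -1.14 for CASZ1, where 19.5% of all genes were. NGFR kept this call in 21 of 21 alternative settings, RUNX3 in 14 of the 18 in which it was tested, CLU in 13 of 21 and CASZ1 in 8 of 21. Among these, CASZ1, CLU and RUNX3 each lost it without TSA replicate 1, TSA replicate 2 or E6R replicate 2 (adjusted p 0.0771 to 0.275). CASZ1 and CLU also lost it without DMSO replicate 1 or 2 (0.0562 to 0.0731). Protein levels and histone marks were not measured, so the activity of either complex was not tested.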

How the data were processed

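The 6 deposited matrices hold whole-number UMI counts for each gene in each barcode, without normalization. The submitters' processing notes name STARsolo 2.7.9a and GRCh38. No source used here states the annotation, the strand rule or how barcodes were picked. Of 36601 gene identifiers, 34616 (94.6%) were in GENCODE 29, which gave the coordinates.

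The 9 members and the other lists were chosen with earlier results of these data known. Barcodes with at least 500 genes and at most 20% mitochondrial UMIs were kept, and their counts were added up by library, since cells are not replicates. Doublets were not called; an alternative dropped the 5% of cells with most UMIs. Sums were tested with edgeR 4.0.16 (R 4.3.3): TMM, filterByExpr, quasi-likelihood F-test, group as the only term, all 6 libraries sharing 1 estimate of spread (common biological coefficient of variation 0.288), Benjamini-Hochberg adjustment at 0.05 over 16763 genes. Adjusted p-values are from this test unless DESeq2 (1.42.0) is named. Standard errors came from the F statistic. The fit was tested on simulated counts.

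CPM used TMM-scaled library sums; values in terciles and in small barcodes used plain sums. Depth per library is given in the report, and counting error is largest for RNF2. Shares have Clopper-Pearson intervals. Named genes were the 9 members, the 4 genes silenced by EZH2, and of 57 other Polycomb genes the 5 largest rises and 5 largest falls that passed (for E6R against DMSO, the 3 smallest p-values). A named gene and a marker are not reported here. Likeness was Pearson r of log2 CPM with a prior count of 2 over genes with a mean of at least 20 CPM. Alternatives changed the scaling, the test, the low-count filter, the replicate block, the cell filters, the depth, the cell-cycle range, the genes in the sums, the shared barcodes and the libraries kept.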

Additional observations from a re-analysis of the deposited data

How the results depend on the processing

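Each result was recomputed under 21 alternatives, 1 of them (without shared barcodes) added after the data were seen. For the 9 members, 161 of 189 values kept their direction and side of the threshold for TSA against DMSO, 165 of 189 for E6R against DMSO and 154 of 189 for E6R against TSA. Values of the 23 other named Polycomb results never changed direction. They had been picked from these data for large changes that passed or for the smallest p-values, unlike the members. Their kept direction is therefore no test.

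With TSA against DMSO the number of members called, 1, became 2 on plain totals, without the low-count filter and with the replicate block, and 0 with at least 300 genes, at most 10% mitochondrial UMIs, all deposited barcodes, without the 5% of cells with most UMIs, with cells thinned to 1000 UMIs, with sums thinned to the smallest and in the lower tercile of cells by cell-cycle UMIs. Leaving out 1 library gave 0 to 2. With E6R against TSA the number, 2, became 4 without the low-count filter, 1 with at most 10% mitochondrial UMIs, without the 5% of cells with most UMIs, without shared barcodes and without mitochondrial and ribosomal protein genes, and 0 with thinned cells and in the lower tercile. Leaving out 1 library gave 0 to 2. In these settings, apart from those without a library, 18.7% to 36.1% of all tested genes were called for TSA against DMSO. For E6R against TSA the share was 24% to 38.3%. Of other Polycomb genes, 13 were called with thinned cells and 9 in the lower tercile for TSA against DMSO. The matching shares of all genes were 28.4% and 19.2%. For E6R against TSA 14 were called in the lower tercile, against 29.7% of all genes. For E6R against DMSO 1 of them (RBBP4) was called with DESeq2 and without the low-count filter, against 2.14% and 3.47% of all genes. Leaving out 1 library gave 5 to 22 for TSA against DMSO and 9 to 23 for E6R against TSA. The cause was not tested, apart from the smaller number of libraries or cells by construction.

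Fitted log2 values that did not pass the test turned sign as follows. On plain totals TSA against DMSO was -0.0075 for EZH1, -0.050 for EZH2, -0.090 for SUZ12 and -0.21 for RING1, E6R against DMSO was -0.14 for JARID2, -0.028 for BMI1 and -0.061 for CBX2, and E6R against TSA was 0.12 for SUZ12. With thinned cells TSA against DMSO was -0.13 for EZH2, -0.048 for SUZ12 and -0.16 for RING1, and E6R against DMSO was -0.13 for SUZ12, -0.094 for JARID2 and -0.062 for CBX2. With sums thinned to the smallest, RING1 was -0.017 for TSA, and SUZ12 -0.022 and JARID2 -0.30 for E6R, each against DMSO. In the lower tercile EZH1 was -0.043 for TSA, and JARID2 -0.040, BMI1 -0.0043 and CLU -0.042 for E6R, against DMSO. With at least 1000 genes RING1 was -0.044 for TSA, and JARID2 -0.015 and CBX2 -0.065 for E6R, against DMSO. Without the 5% of cells with most UMIs, E6R against DMSO was -0.012 for SUZ12 and -0.50 for NGFR, and with at most 10% mitochondrial UMIs it was -0.058 for JARID2. Without shared barcodes JARID2 was -0.019 for E6R against DMSO. RING1 for E6R against DMSO was 0.080 without the low-count filter and 0.099 with all barcodes. For E6R against TSA, SUZ12 was 0.19 without the low-count filter and 0.037 without mitochondrial and ribosomal protein genes, and RING1 was 0.064 without the low-count filter. Leaving out 1 library moved RING1 between -0.27 and 0.50 for TSA against DMSO, between -0.34 and 0.42 for E6R against DMSO and between -0.48 and 0.21 for E6R against TSA. For E6R against DMSO it moved JARID2 between -0.54 and 0.73, CBX2 between -0.23 and 0.68, CASZ1 between -0.47 and 0.15 and CLU between -0.53 and 0.78, and for E6R against TSA SUZ12 between -0.24 and 0.19.

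Same-numbered libraries deviated together with r = 0.242 (DMSO with TSA), 0.564 (DMSO with E6R) and 0.166 (TSA with E6R) over 7515 genes, but the labels do not say what a number marks and 2 numbers are too few to show pairing. With the replicate block, members called were 2 (RNF2 and JARID2) for TSA against DMSO, 0 for E6R against DMSO and 3 (with EZH1) for E6R against TSA, other Polycomb genes called were 23, 0 and 29 of 55 (36.1%, 0.113% and 45.1% of all genes), and JARID2 was -0.011 for E6R against DMSO.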
